A study of Mus musculus with 4 samples.

Results

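The 35 cell-cycle genes described here were found by symbol in the matrices of all 4 libraries, 35 of 32285 features, each with 1 row. By role they were divided into 22 genes of the G2 phase and mitosis (G2/M), 11 genes of DNA replication (S phase), and Hmgb2 and Stmn1, which dividing cells use but which other cells also carry. Single CD45-negative cells of the thymus had been profiled by droplet-based 3′ RNA-seq. The mice were 6 months old, of strain C57BL/6 and untreated. The labels place 2 libraries in the group Foxn1LacZ mock, with a wild-type genotype (WT 1 and WT 2), and 2 in the group Foxn1LacZ mutant, homozygous for the LacZ allele (Z/Z 1 and Z/Z 2). Foxn1 is the transcription factor on which thymic epithelial cells (TECs) depend, and the LacZ allele is a germline hypomorphic allele, not a deletion restricted to TECs. Thymi of 10 to 15 mice were pooled, CD45-positive cells were depleted with beads, and the rest were sorted, so all shares depend on digestion and on that sort. The labels contradict each other on sex, female in the protocol and male in the characteristics.

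A dividing cell passes through a fixed order of gene programmes. Before and during DNA replication, E2F factors switch on the helicase subunits Mcm2 to Mcm6, the sliding clamp Pcna, the nucleotide enzymes Rrm1, Rrm2, Tyms and Tk1, and Uhrf1, which carries DNA methylation onto the new strand. Later the B-MYB and FOXM1 complexes switch on the kinases, cyclins, motors and centromere proteins of mitosis. In the thymus, thymocytes divide most. Among TECs, division is known above all from medullary cells (mTECs) on their way to the Aire-expressing stage, and Foxn1 is known to promote it. Replication proteins also serve DNA repair and are found at low level in resting cells, whereas most mitotic transcripts are degraded after division.

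The G2/M and S members differ in their promoters, and 6 promoters are shown because these genes recur in the results: 3 G2/M genes, Hmgb2 and 2 S genes. The sequences run from 250 bases before to 50 bases after the RefSeq start (GRCm38.p6). They lie at chr7:135716330-135716629 (Mki67, minus strand), chr11:99024140-99024439 (Top2a, minus strand), chr10:69352863-69353162 (Cdk1, minus strand), chr8:57511593-57511892 (Hmgb2, plus strand), chr2:132253131-132253430 (Pcna, minus strand) and chr8:75109259-75109558 (Mcm5, plus strand). Capitals mark matches, on either strand, to 3 kinds of site. The cell cycle homology region, CHR, was searched as TTTGAA and also in the form TTCGAA. The NF-Y site was searched as CCAAT. The E2F site was searched in 4 forms, of which the first was TTCCCGC and another was the form TTCGCGC. The remaining forms were TTGCCGC and, differing from it in the middle, TTGGCGC. A minus-strand match is capitalised as its reverse complement, and overlapping matches run together.
Mki67: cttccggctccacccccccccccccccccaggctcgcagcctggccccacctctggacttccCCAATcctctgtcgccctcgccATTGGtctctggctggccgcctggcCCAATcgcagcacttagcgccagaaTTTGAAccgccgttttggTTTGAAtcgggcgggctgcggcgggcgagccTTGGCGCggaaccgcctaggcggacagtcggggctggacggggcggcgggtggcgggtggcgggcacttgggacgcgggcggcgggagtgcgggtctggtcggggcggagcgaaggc
Top2a: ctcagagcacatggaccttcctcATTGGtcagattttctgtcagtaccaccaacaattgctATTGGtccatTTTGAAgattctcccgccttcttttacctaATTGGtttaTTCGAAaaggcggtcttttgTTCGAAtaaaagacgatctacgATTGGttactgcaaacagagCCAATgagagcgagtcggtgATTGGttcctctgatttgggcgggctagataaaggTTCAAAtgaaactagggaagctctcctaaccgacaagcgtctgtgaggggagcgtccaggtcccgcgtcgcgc
Cdk1: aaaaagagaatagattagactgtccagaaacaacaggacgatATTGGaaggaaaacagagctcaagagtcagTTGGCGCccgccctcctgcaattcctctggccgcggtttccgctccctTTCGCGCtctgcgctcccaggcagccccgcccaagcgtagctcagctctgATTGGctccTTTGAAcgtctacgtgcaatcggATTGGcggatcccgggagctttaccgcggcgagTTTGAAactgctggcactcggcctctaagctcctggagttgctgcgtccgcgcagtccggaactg
Hmgb2: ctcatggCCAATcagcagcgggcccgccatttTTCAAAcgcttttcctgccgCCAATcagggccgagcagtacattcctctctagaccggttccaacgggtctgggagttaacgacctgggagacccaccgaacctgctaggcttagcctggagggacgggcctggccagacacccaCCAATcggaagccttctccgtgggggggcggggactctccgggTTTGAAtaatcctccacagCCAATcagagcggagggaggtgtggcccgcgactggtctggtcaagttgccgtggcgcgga
Pcna: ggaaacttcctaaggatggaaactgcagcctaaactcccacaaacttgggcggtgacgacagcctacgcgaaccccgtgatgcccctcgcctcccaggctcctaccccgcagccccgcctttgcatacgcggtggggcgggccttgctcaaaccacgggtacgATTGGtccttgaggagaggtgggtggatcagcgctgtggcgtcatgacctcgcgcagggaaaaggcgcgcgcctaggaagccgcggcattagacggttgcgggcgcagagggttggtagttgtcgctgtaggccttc
Mcm5: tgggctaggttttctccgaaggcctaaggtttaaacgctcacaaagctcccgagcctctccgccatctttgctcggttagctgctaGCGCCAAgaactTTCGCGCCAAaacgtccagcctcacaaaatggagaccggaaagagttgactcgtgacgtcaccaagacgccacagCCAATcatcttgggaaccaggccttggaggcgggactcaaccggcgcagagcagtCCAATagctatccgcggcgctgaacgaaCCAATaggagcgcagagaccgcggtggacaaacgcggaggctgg

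The promoter table held 30 of the 35 members, and Ccna2, Aurkb, Tpx2, Mcm4 and Stmn1 were not among them. A CHR match was found in 15 of 19 G2/M members (78.9%), in 1 of 10 S members (Mcm2) and in 19.2% of all 32851 promoters of this length. An E2F match was found in 3 of 19 G2/M members (Mki67, Ccnb1 and Cdk1), in 6 of 10 S members (60%) and in 9.57% of all promoters. CCAAT did not separate the groups, with 16 of 19, 8 of 10 and 37.4% of all promoters. CHR and CCAAT stood together in 14 of 19 G2/M members (73.7%) against 7.52% of all promoters. Top2a carried 4 CHR and 6 CCAAT matches, the largest count of CHR among the members, and Hmgb2, which is neither in the G2/M nor in the S group, had 2 and 4. The Pcna window held none of the E2F letters searched. A second list of cycle genes, 43 of S phase and 54 of G2/M, divided the same way, with CHR in 69% of 42 G2/M genes in the table and E2F in 70% of 30 S genes. These matches describe the letters and are not evidence of binding.

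The libraries held 13981 called barcodes with 8468086 to 50705511 UMIs each, and 9846 cells were kept. By markers 4157 of these were TECs, 2743 fibroblasts, 1503 endothelial cells and 800 mural cells, while 169 were thymocytes that had passed the depletion. These 4 stromal lineages each had all of its own defining markers detected in every library. The cycle genes and markers were left out of the clustering, so no cluster was built from the members. The WT libraries held few cells, with 558 and 103 TECs, 109 and 25 endothelial cells and 68 and 11 mural cells. A TEC of the WT libraries carried 16552 or 17803 UMIs at the median and one of the Z/Z libraries 6741 or 7024. Barcodes recurred between libraries of 1 genotype, 202 between the WT and 249 between the Z/Z libraries (17 and 32 kept as cells in both), whereas pairs of different genotype shared 0 to 6. The labels give no sequencing run, so run and genotype cannot be told apart. Foxn1 was detected in the TECs of all libraries, at 85.5 and 122 CPM (UMIs scaled to a common library size, here with TMM factors) for WT against 54.2 and 71.6 for Z/Z (log2 fold change -0.71, SE 0.24, edgeR adjusted p = 0.0862). Free RNA differed between the groups. In barcodes with up to 100 UMIs, the 22 G2/M members had 503 and 697 CPM in WT against 99.2 and 187 in Z/Z, and the 12 thymocyte markers 1306 and 2394 against 141 and 725.

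Mitotic genes were mostly highest in TECs, whereas replication genes were spread over the stromal lineages. Of the 22 G2/M members, 19 had their highest mean level among TECs, fibroblasts, endothelial cells and mural cells in TECs, and 17 were higher in TECs than in fibroblasts in 4 of 4 libraries. The exceptions were Cenpa and Kif23, highest in endothelial cells, and Bub1b, highest in mural cells through 4 UMIs in the 11 cells of WT 2. Of the 11 S members only Mcm5, Rrm2, Tk1 and Uhrf1 were highest in TECs. Mcm3, Mcm6, Pcna and Tyms were highest in endothelial cells, Mcm4 and Rrm1 in mural cells and Mcm2 in fibroblasts. Some of these ranks were weak. Mcm6 was above TECs only through 7 UMIs in the 25 endothelial cells of WT 2, where Tyms had 0 UMIs. Mcm2 was higher in fibroblasts than in TECs only in WT 2, from 14 and 5 UMIs. Hmgb2 and Stmn1, a chromatin protein and a microtubule-destabilising protein, were highest in TECs. These are descriptions without a test, and each compares 1 gene across cells, since 3′ UMI counts are not divided by gene length.

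Top2a, the topoisomerase that untangles chromosomes before they part, had 43.6 and 75.4 CPM in WT TECs and 22.1 and 26.0 in Z/Z TECs. In fibroblasts it had 2.5 and 4.6 CPM in WT against 1.6 and 4.2 in Z/Z. The ranges of both lineages were far apart in every library. Mki67, the antigen that coats mitotic chromosomes, had 31.6, 21.2, 15.1 and 14.3 CPM in TECs and 4.0, 4.9, 2.0 and 4.7 in fibroblasts (sets of 4 values give both WT libraries first, each genotype by replicate number). Pcna did not follow this order. Its level was 54.9, 51.6, 38.5 and 36.0 CPM in TECs, close to 46.8, 59.3, 46.2 and 43.4 in fibroblasts, and 65.1, 84.2, 144.8 and 115.9 in endothelial cells. Endothelial Pcna was above TEC Pcna in 4 of 4 libraries, and its neighbours in the order, TECs and fibroblasts, did not differ beyond their spread. Rrm1, the large subunit of ribonucleotide reductase, had 99.6, 251.9, 299.6 and 141.4 CPM in mural cells, against 19.2 to 28.0 CPM in TECs, fibroblasts and endothelial cells. Top2a had 1.8, 8.7, 3.2 and 4.8 CPM in mural cells, from 1 to 8 UMIs per library. The 22 G2/M members together had 28.4, 78.2, 49.7 and 70.7 CPM there. Their sum was 30.6, 46.6, 25.5 and 41.8 CPM in fibroblasts and 248, 260, 126 and 139 in TECs.

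**Figure D1:**
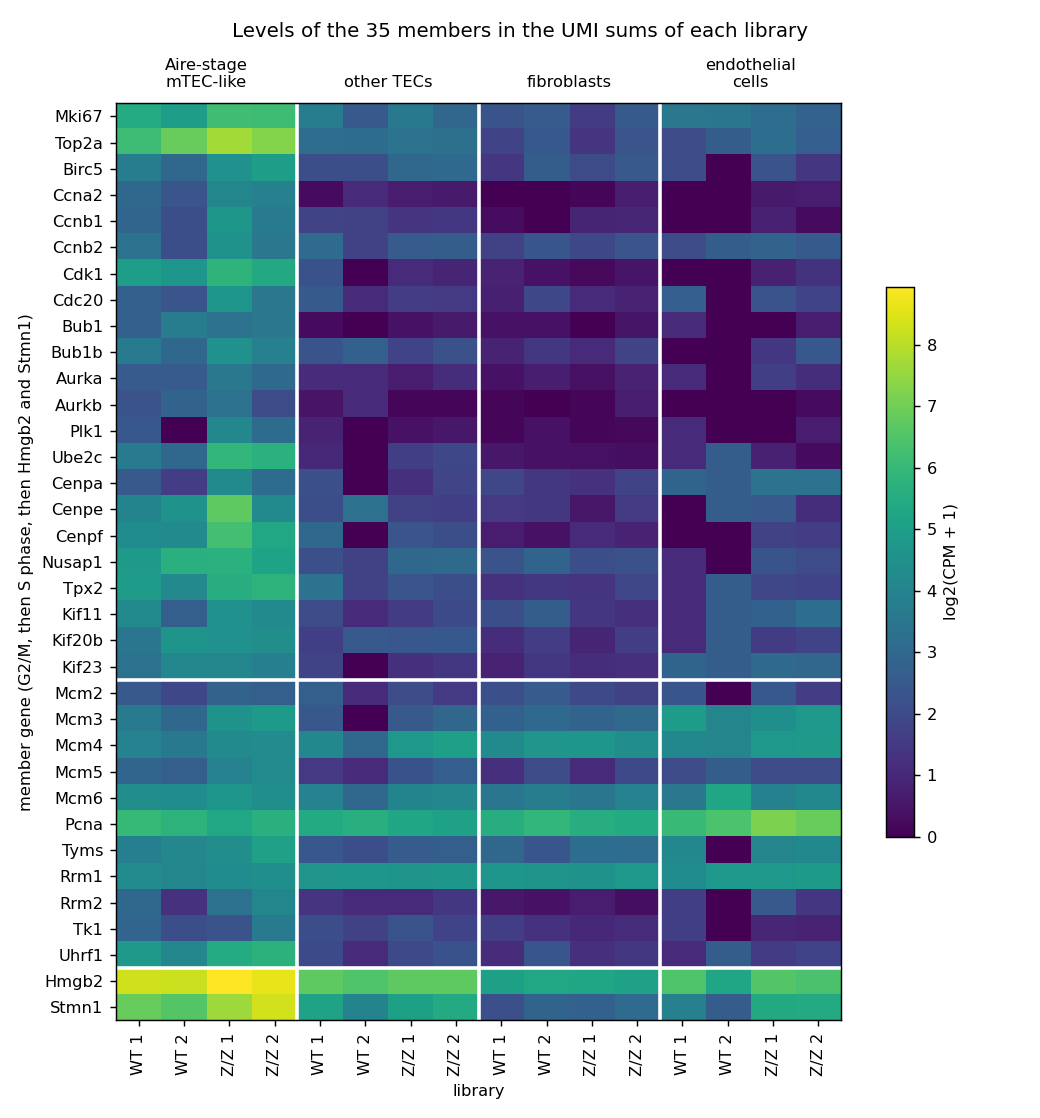
Levels of the 35 members as log2(CPM + 1) (colour) in the UMI sums of Aire-stage mTEC-like cells, other TECs, fibroblasts and endothelial cells, with 1 column for each of the 4 libraries. Most of the 22 G2/M rows at the top are brightest in the first block, with exceptions such as Cenpa. Plk1 is brightest there except in WT 2, where it had 0 UMIs in these cells. S rows such as Pcna, Mcm4, Mcm6 and Rrm1 have similar colours in all blocks.

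To count dividing cells, each cell was thinned to 2000 UMIs, since deeper cells show more genes, and a cell was called proliferating when UMIs of at least 2 of the 22 G2/M members remained. By this count 22 of 550 TECs were proliferating in WT 1 (4.0%, 95% Clopper-Pearson interval 2.52% to 5.99%), 4 of 103 in WT 2 (3.88%, 1.07% to 9.65%), 22 of 1918 in Z/Z 1 (1.15%, 0.720% to 1.73%) and 18 of 1482 in Z/Z 2 (1.21%, 0.721% to 1.91%). The intervals cover counting error only. Many TECs lay just below the limit, with exactly 1 G2/M member in 64, 12, 136 and 140 cells, and 10, 2, 5 and 5 cells held 5 or more. Without thinning the shares were 27.4%, 32.0%, 6.76% and 11.1%.

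Few fibroblasts were called proliferating. None of 591 cells in WT 1 and none of 192 in WT 2 was proliferating, which allows shares of up to 0.508% and 1.56%, and there were 4 of 1211 in Z/Z 1 (0.330%) and 1 of 738 in Z/Z 2 (0.136%). Fibroblasts had median depths of 14353, 14763.5, 10305 and 10498 UMIs. The empty-droplet subtraction was scaled to the UMIs of the thymocyte markers. It removed 1.95%, 3.02%, 5.32% and 7.61% of the fibroblast UMIs against 11.5%, 3.29%, 23.6% and 16.1% in TECs. Marker UMIs from any other source count in it too, so it is not a measure of free RNA alone. Fibroblast shares are not taken as a measure of the TEC background, which was not tested. Endothelial cells were proliferating in 0 of 106 and 0 of 25 WT cells, which allows up to 2.83% and 12%, in 7 of 683 cells in Z/Z 1 (1.02%) and in 5 of 662 in Z/Z 2 (0.755%). Mural cells gave 2 of 68, 0 of 11, 6 of 407 and 1 of 308. Thymocytes, the dividing cells of the organ, gave 10 of 86, 8 of 34, 0 of 7 and 12 of 33. Among clusters set apart for low UMI counts, 11 of 27 WT 2 cells and 4 of 82 Z/Z 2 cells were proliferating, and all 15 carried at least 2 of the thymocyte markers.

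Within each library TECs were above fibroblasts in 4 of 4 libraries, by 2.44 percentage points on average (SD 1.73, n = 4 libraries). The exact sign-flip permutation test over libraries gave p = 0.125, two-sided, the smallest p this test can give with 4 libraries. Over the 5 within-library differences tested, the adjusted value was 0.156. TECs were also above endothelial cells in 4 of 4 libraries, by 2.12 points (SD 2.11, exact permutation p = 0.125, adjusted 0.156), but the difference was 0.122 and 0.459 points in the Z/Z libraries. TECs outside the Aire-stage mTEC-like cluster described next were above fibroblasts in 4 of 4 libraries, by 1.05 points (SD 0.722, exact permutation p = 0.125, adjusted 0.156). They were above endothelial cells in 2 of 4, by 1.45 and 1.85 points in WT and by -0.325 and -0.113 in Z/Z (exact permutation p = 0.5, adjusted 0.5). In WT 2 these TECs held 1 proliferating cell among 54. Over 20 draws of the thinning they averaged 0.463% there, against 0.365% in fibroblasts and 0.2% in endothelial cells.

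**Figure D2:**
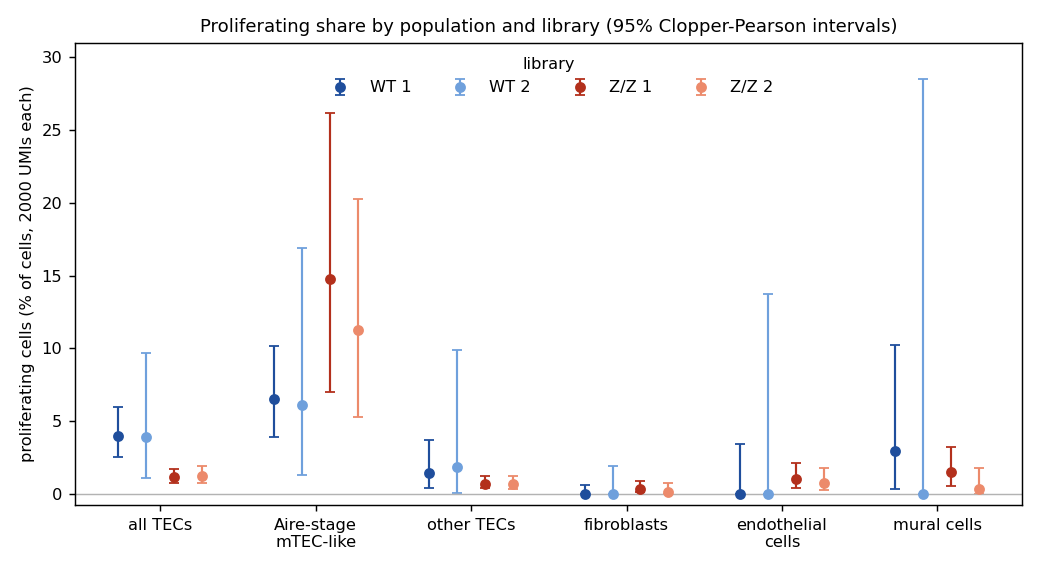
Share of proliferating cells, in percent of cells thinned to 2000 UMIs, in 6 populations, with 1 point per library and its 95% Clopper-Pearson interval. The Aire-stage mTEC-like points, 6.12% to 14.8%, are the highest in each library, and fibroblasts stay at or below 0.330%.

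Over all libraries 39 of the 66 proliferating TECs were in a single cluster. This cluster, 1 of 16, was named from Aire and Fezf2, the regulators of tissue antigens in the medulla, with Cd80, Cd40 and Tnfrsf11a, and is called Aire-stage mTEC-like. Cd52 and S100a8, which immune cells also use, were among its leading genes. It held 18 of the 22 proliferating TECs in WT 1, 3 of 4 in WT 2, 9 of 22 in Z/Z 1 and 9 of 18 in Z/Z 2. It made up 50.0% and 47.6% of the TECs counted in WT but 3.18% and 5.40% in Z/Z. Its own proliferating share was 6.55% (3.93% to 10.1%) in WT 1, 6.12% (1.28% to 16.9%) in WT 2, 14.8% (6.98% to 26.2%) in Z/Z 1 and 11.3% (5.28% to 20.3%) in Z/Z 2. The other TECs had 1.45%, 1.85%, 0.70% and 0.642%. Aire-stage mTEC-like cells were above the other TECs in 4 of 4 libraries, by 8.51 points on average (SD 4.65, exact sign-flip permutation p = 0.125, adjusted 0.156). The other 15 clusters held 0 to 5 proliferating cells in any library. Over all libraries the aaTEC1-like cluster held 6 of 423 (1.42%), the mTEC1-like cluster 5 of 220 (2.27%) and the cTEC-like cluster 3 of 148 (2.03%). The aaTEC2-like clusters held 2 of 614 and 1 of 323.

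**Figure D3:**
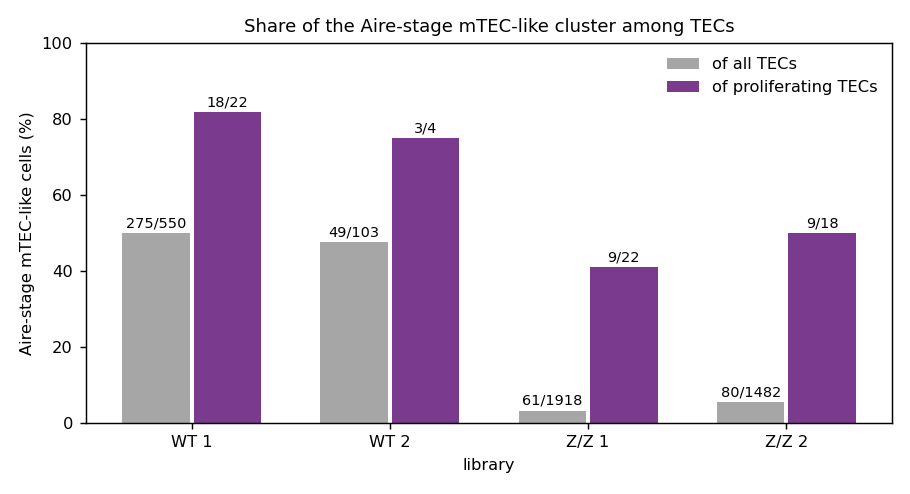
Share of Aire-stage mTEC-like cells in percent, among all TECs (grey) and among proliferating TECs (purple), for each library, with the cell numbers above the bars. The cluster is 3.18% to 50.0% of TECs but 40.9% to 81.8% of proliferating TECs.

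The proliferating TECs were checked with genes that had not been used to call them. The S members were higher than in the other TECs of the same library in 4 of 4 libraries for 10 of 11 genes, the exception being Tk1 with 0 UMIs in the 4 cells of WT 2. The ratio of the summed CPM ranged from 1.99 for Mcm4 to 19.4 for Rrm2, with a median of 7.39. Rrm2, the regulated subunit of ribonucleotide reductase, had 35.4, 10.5, 31.2 and 42.7 CPM in proliferating TECs and 2.6, 0.9, 0.7 and 2.5 in the others. Mcm4 had 52.5, 42.0, 42.6 and 42.7 CPM against 13.0, 8.1, 25.1 and 30.6, so that 91 of its UMIs came from proliferating TECs and 1195 from the others. Hmgb2 was 12.8 times and Stmn1 17.2 times as high. In a second list, 44 of 54 other G2/M genes and 33 of 43 other S genes were higher in all 4 libraries, with median ratios of 14.6 and 4.09. G2e3, a ubiquitin ligase, and Pttg1, securin, were the G2/M genes with a ratio under 1 (0.92 and 0.97).

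TEC genes were detected in the proliferating TECs of every library. Epcam, an epithelial adhesion protein, had 1067, 1312, 1496 and 1386 CPM in them against 854, 923, 1040 and 1161 in the other TECs. Aire had 477, 504, 341 and 171 CPM in proliferating TECs against 200, 241, 36.9 and 62.2 in the others, and Fezf2 290, 294, 184 and 161 against 179, 191, 24.3 and 51.5. Foxn1 itself had 101, 189, 100.0 and 78.3 CPM in proliferating and 89.5, 124, 49.0 and 68.1 in other TECs, higher in 4 of 4 libraries. Proliferating and other TECs differed in cell class as well. Aire-stage mTEC-like cells were 40.9% to 81.8% of proliferating TECs but 3.18% to 50.0% of all TECs. The part of class in these levels and in the ratios above was not tested. Of the proliferating TECs, 1 of 22 in WT 1 and 2 of 18 in Z/Z 2 carried 2 or more thymocyte markers, and none did in WT 2 and Z/Z 1. At least 1 marker was carried by 1 of 22, 0 of 4, 5 of 22 and 5 of 18. In the Aire-stage mTEC-like cluster these numbers were 0 of 18, 0 of 3, 2 of 9 and 2 of 9. The part of thymocyte RNA in the calls was not tested.

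**Figure D4:**
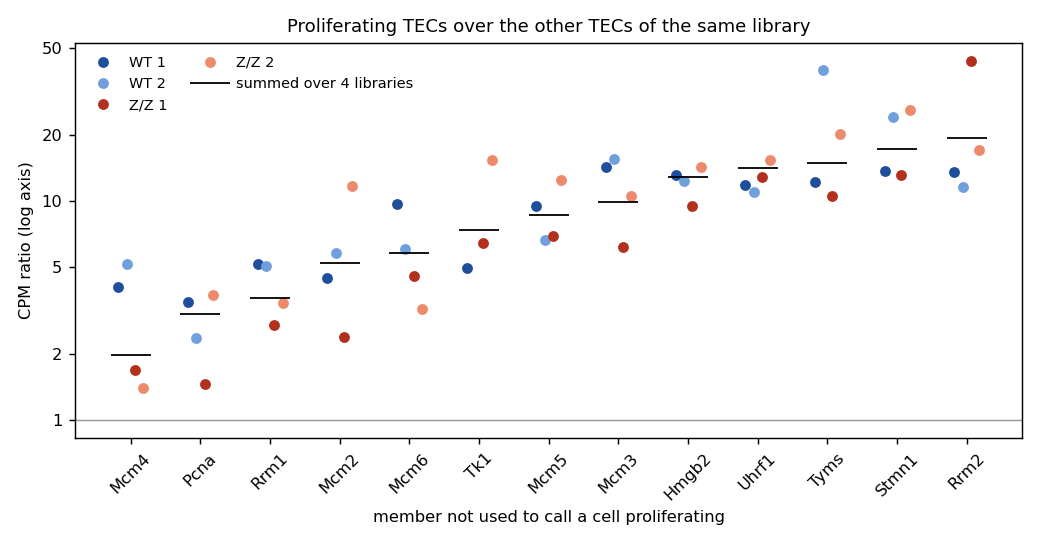
Ratio of CPM in proliferating TECs to CPM in the other TECs (log axis) for the 13 members not used to call a cell proliferating, with 1 point per library and a bar for the ratio over all 4. All points lie above 1; the WT 2 value of Tk1 is 0 and is not drawn.

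The proliferating share of all TECs was lower in Z/Z. WT libraries averaged 3.94% ± 0.0824 and Z/Z libraries 1.18% ± 0.0478 (SD, n = 2 each), a difference of -2.76 points, and the groups did not overlap (exact permutation p = 0.33, two-sided, the minimum for 2 against 2). Over 20 other draws of the thinning WT 1 and WT 2 averaged 4.10% and 4.37%, Z/Z 1 and Z/Z 2 1.02% and 1.49%. Single draws ranged from 3.64% to 5.09% in WT 1 and from 1.94% to 7.77% in WT 2. They ranged from 0.782% to 1.30% in Z/Z 1 and from 1.15% to 1.82% in Z/Z 2. The SDs above describe 1 draw only. With barcodes shared between libraries kept once, the difference was -2.34 points. The share of Aire-stage mTEC-like cells, given above, differed between the groups as well. Within the Aire-stage mTEC-like cluster the share was higher in Z/Z, 13.0% ± 2.48 against 6.33% ± 0.299 (SD, n = 2 each), a difference of 6.67 points without overlap (exact permutation p = 0.33). When both parts of the epithelium were given equal weight in each library, WT TECs came to 4.00% and 3.99% and Z/Z TECs to 7.73% and 5.95%. The direction thus turned in this 1 draw of the thinning, under an alternative added later, once values were known. Equal weights were not applied to the shares without thinning. There the other TECs had 16.8% and 14.8% in WT against 5.60% and 9.10% in Z/Z. The difference within the cluster was 7.32 points with shared barcodes kept once, 2.77 at 1000 UMIs and 10.9 at 4000 UMIs per cell. Without thinning it was 0.262 points, from 44.5% to 44.8%, with overlapping groups, at median depths of 23633 and 30016 UMIs in WT against 23600 and 27519 in Z/Z. In the other TECs the difference was -0.982 points, and over 20 draws the groups overlapped (1.85% and 0.463% against 0.555% and 0.888%).

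In UMI sums over all TECs of a library, 5 of the 35 members passed the test (edgeR, adjusted p under 0.05), or 14.3%, where 21.6% of the 18850 genes tested passed. The members therefore did not stand out by their number of calls. Such sums mix cell classes, and fewer dividing cells cannot be told apart from less RNA per cell. By direction, 18 of 22 G2/M members were below 0, with a median log2 fold change of -0.80, the 11 S members had a median of -0.096, and all genes one of 0.0014. Values below are CPM scaled with TMM factors.

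Of the G2/M members 3 fell, Cdk1 (ENSMUSG00000019942, chr10:69335146-69352938), Top2a (ENSMUSG00000020914, chr11:98992943-99024189) and Aurkb (ENSMUSG00000020897, chr11:69045647-69051664), all placed on GRCm38. Cdk1, the kinase that starts mitosis, had 18.8 and 15.0 CPM in WT against 4.93 and 6.01 in Z/Z, so that both WT libraries were above both Z/Z libraries (log2 fold change -1.64, SE 0.29, edgeR adjusted p = 0.0187). Top2a had 41.3 and 72.6 CPM against 23.4 and 27.1 (-1.15, SE 0.30, edgeR adjusted p = 0.0479). Its WT libraries differed from each other more than WT 1 did from Z/Z 2. Aurkb, the kinase of the chromosomal passenger complex, rested on few UMIs, 30 and 10 in WT against 14 and 9 in Z/Z, with 2.31, 4.17, 0.734 and 0.520 CPM (-2.27, SE 0.60, edgeR adjusted p = 0.0486). Mki67 had 29.8, 20.5, 15.99 and 14.9 CPM and did not pass (-0.73, SE 0.25, edgeR adjusted p = 0.0920), although its groups did not overlap. The remaining 18 G2/M members had fold changes from -1.83 for Bub1, the spindle checkpoint kinase, to 0.42 for Birc5, survivin, and 4 of them (Bub1, Kif23, Nusap1 and Tpx2) were below an unadjusted p of 0.05, all lower. In all, 8 of the 22 (36.4%) were under that limit, where 38.4% of all genes were in either direction and 20.1% were lower.

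Of the S members 1 was called. Mcm4 (ENSMUSG00000022673, chr16:15623897-15637400), a helicase subunit, rose from 14.8 and 9.18 CPM in WT to 27.1 and 32.1 in Z/Z (1.25, SE 0.28, edgeR adjusted p = 0.0336). Its partners in the helicase did not pass, with 0.53 (SE 0.40) for Mcm5, from 4.396 and 3.76 to 4.72 and 7.28 CPM, and 0.13, 0.28 and -0.25 for Mcm6, Mcm3 and Mcm2. Pcna had 51.9 and 49.7 CPM in WT against 40.9 and 37.5 in Z/Z (-0.38, SE 0.16, edgeR adjusted p = 0.146). Of Hmgb2 and Stmn1, Hmgb2 (ENSMUSG00000054717, chr8:57511907-57515999) fell, from 218 and 209 to 138 and 145 CPM (-0.59, SE 0.13, edgeR adjusted p = 0.0305). Stmn1 had 77.4, 61.4, 46.0 and 79.3 CPM with overlapping groups (-0.16, SE 0.29, edgeR adjusted p = 0.726).

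The calls depended on single libraries and on which cells were summed. No member was called without Z/Z 1 or without Z/Z 2, where the single library left is assumed to vary like the WT libraries. The fold changes themselves kept their direction when any 1 library was left out, between -1.78 and -1.47 for Cdk1, -0.62 and -0.52 for Hmgb2 and 1.03 and 1.68 for Mcm4. Those of Top2a ranged from -1.53 to -0.68 and those of Aurkb, where it was tested, from -2.72 to -1.84. Once empty-droplet RNA had been subtracted, in which the G2/M members were higher in WT as given above, 1 of the 35 (Cdk1) was called, and with cells carrying thymocyte markers left out, again 1 (Aurkb). Under both alternatives the directions held, with -1.65 and -2.11 for Cdk1, -2.97 and -2.62 for Aurkb, -1.08 and -0.99 for Top2a, -0.51 and -0.63 for Hmgb2 and 1.40 and 1.12 for Mcm4. The thymocyte markers, 12 of 12 detected, summed to 155 and 82.3 CPM in WT TECs and 34.003 and 119 in Z/Z TECs. Markers of other haematopoietic cells, 8 to 11 of 11 detected, summed to 304 and 694 CPM in WT TECs and 66.4 and 112 in Z/Z TECs, without overlap, and their part in these values was not tested.

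Without the Aire-stage mTEC-like cluster, an alternative added after seeing the data, 0 of 31 members tested were called by edgeR, where 2.13% of all genes were. At an unadjusted p under 0.05 there were 4 (12.9%, where 20.8% of all genes were), all higher in Z/Z, as were 10.7% of all genes. Top2a was then at 0.26 and Hmgb2 at 0.18, above 0, while Cdk1 stayed at -1.34 (edgeR adjusted p = 0.390) and Mcm4 at 1.17 (edgeR adjusted p = 0.147).

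Within the cluster the members pointed the other way. All 22 G2/M members, 10 of 11 S members and both Hmgb2 and Stmn1 had a fold change above 0, with a median of 0.92 over the 35, against 0.0097 for all genes. None passed in edgeR, where 0 of 12503 genes did (0%), and 16 of the 35 were below an unadjusted p of 0.05, all higher, where 6.84% of all genes were higher at that level. DESeq2 called 2 of the 35, Ube2c and Stmn1, against 1.56% of genes. Ube2c, the ubiquitin-conjugating enzyme of the anaphase-promoting complex, had 11.7 and 7.09 CPM in WT against 59.5 and 53.3 in Z/Z (2.51, SE 0.33, edgeR adjusted p = 0.258). Stmn1 had 116 and 95.02 against 201 and 329 CPM (1.32, SE 0.29, edgeR adjusted p = 0.258). Top2a had 69.0 and 118 against 208 and 159 CPM (0.99, SE 0.32, edgeR adjusted p = 0.302), so each Z/Z library was above each WT library. Mki67 had 44.9 and 31.9 against 73.5 and 73.6 CPM, and Hmgb2 320 and 301 against 494 and 414. Mcm5 had 6.70 and 5.67 against 14.9 and 19.4 CPM. Pcna was the only member below 0, with 63.5 and 54.6 against 39.1 and 52.3 CPM (-0.37, SE 0.24, edgeR adjusted p = 0.528). The thymocyte markers summed to 71.6 and 85.0 CPM in WT against 60.5 and 79.8 in Z/Z in this cluster, and their part in these values was not tested.

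**Figure D5:**
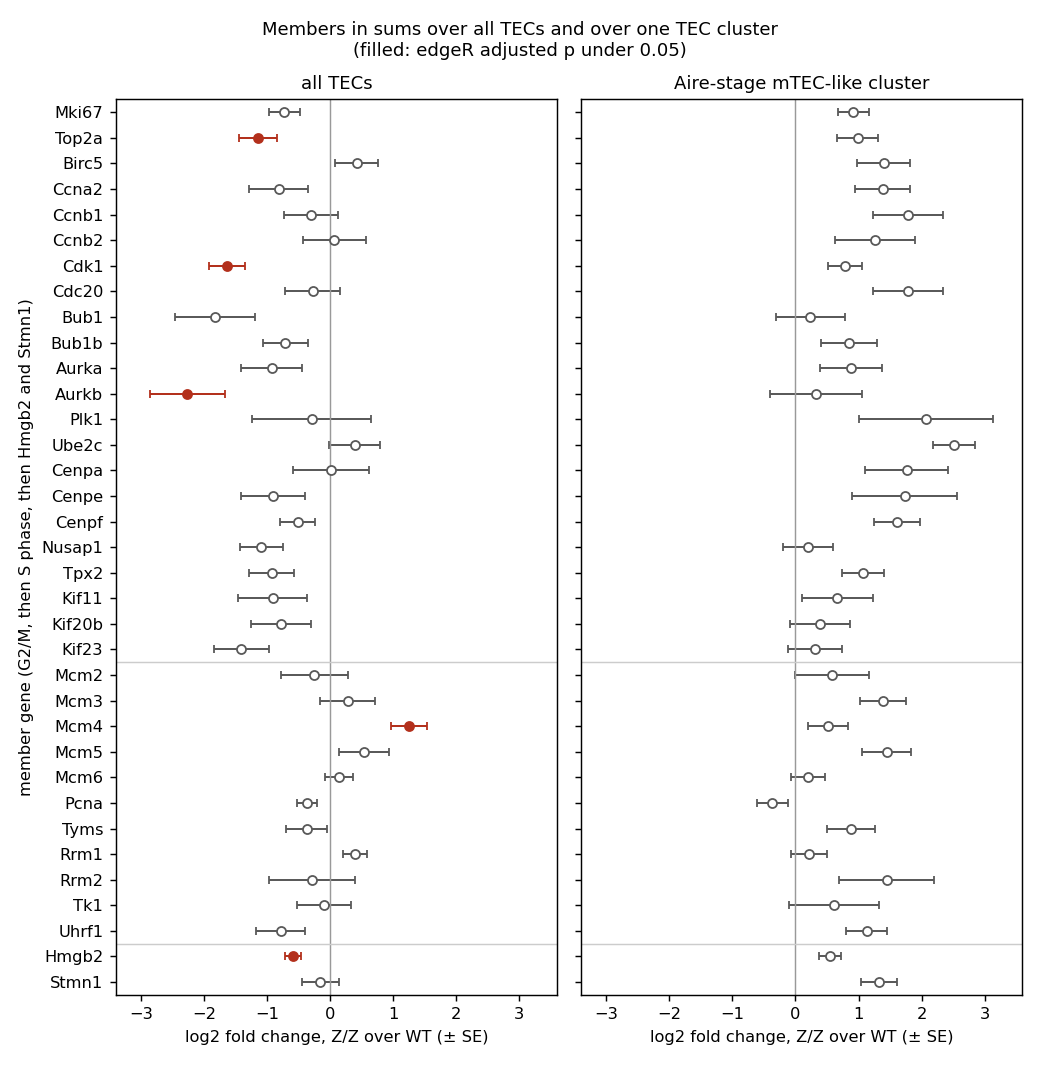
Log2 fold change of each of the 35 members, Z/Z over WT, with its SE, in sums over all TECs (left) and over the Aire-stage mTEC-like cluster (right); filled points passed edgeR at an adjusted p under 0.05. The 22 G2/M points lie mostly left of 0 over all TECs (18 of 22) and all right of 0 in the cluster.

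In fibroblasts 24 of the 35 members could be tested and 0 were called by edgeR, where 3.03% of genes were. At an unadjusted p under 0.05, which 18.1% of all genes passed (8.45% lower in Z/Z), there was 1, Kif11, a spindle motor, with 3.27 and 5.24 CPM in WT against 1.69 and 1.39 in Z/Z (-1.38, SE 0.50, edgeR adjusted p = 0.185), and DESeq2 called 0. The median fold change of the members was 0.031. Mki67, Top2a, Mcm5, Pcna, Hmgb2 and Stmn1 lay between -0.35 and 0.60, and Hmgb2 had 32.0, 39.1, 38.9 and 34.9 CPM. The proliferating share differed by 0.233 points in the thinned cells and by -0.0276 over 20 draws, with overlapping groups.

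In endothelial cells 17 members were tested and 1 was called, where 2.13% of genes were. Stmn1 rose from 14.3 and 5.15 CPM in WT, 13 and 1 UMIs, to 42.8 and 43.9 in Z/Z (1.80, SE 0.40, edgeR adjusted p = 0.0394). DESeq2 did not call it, nor did edgeR without either Z/Z library, although the fold change was between 1.60 and 3.16 with any 1 library left out. In cells thinned to 2000 UMIs it was 0.39 and was not called. Pcna had 67.0 and 82.4 CPM in WT against 147 and 117 in Z/Z, without overlap, and did not pass (0.89, SE 0.25, edgeR adjusted p = 0.087). Mki67 was at -0.59 (SE 0.54) and Top2a at 0.92 (SE 0.76), from 10, 2, 42 and 29 and 3, 1, 43 and 26 UMIs. The proliferating share was 0% in both WT libraries against 0.890% in Z/Z, but the floors of 2.83% and 12% for the WT libraries lie above the Z/Z shares, so a difference was not detectable at this depth.

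Whether the Z/Z effect differed between TECs and fibroblasts was tested with the library as a block. For 0 of the 35 members did it differ by edgeR, where it did for 11.4% of genes. At an unadjusted p under 0.05 there were 8 (22.9%, where 25.2% of all genes were), of which 7 were lower in TECs, as were 12.1% of all genes, and DESeq2 called 0 with 1 under that limit. Hmgb2 came closest (-0.72, SE 0.21, edgeR adjusted p = 0.0557). Among the other cycle genes 5 of 94 differed: the Z/Z effect on Ccne2, Dtl, Kif4 and Cks2 was lower in TECs than in fibroblasts and that on G2e3 was higher. In fibroblasts themselves Cks2 was at 0.15 (SE 0.35) and G2e3 at -0.11 (SE 0.20), and neither passed.

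Of the other cycle genes, 10 of 96 (10.4%) were called in TEC sums, where 21.6% of all genes were. Of these 10, 9 were lower and 1 higher, and the median was -0.82 in G2/M and 0.00054 in S genes. Cks2, a cofactor of Cdk1, fell from 42.2 and 47.2 to 10.6 and 11.3 CPM (-2.03, SE 0.19, edgeR adjusted p = 0.00781). In the Aire-stage mTEC-like cluster it had 66.6 and 77.3 against 88.4 and 57.1 CPM (0.014, SE 0.28). Ect2, which places the cleavage furrow, fell by 1.39 (SE 0.25, edgeR adjusted p = 0.0194) on the log2 scale and Cdc25c, the phosphatase that activates Cdk1, by 1.82 (SE 0.33, edgeR adjusted p = 0.0202). In the other direction G2e3 rose from 5.55 and 4.17 to 22.8 and 19.6 CPM (2.07, SE 0.28, edgeR adjusted p = 0.0106). Rpa2, a subunit of the protein that coats single-stranded DNA, did not pass, with 0.83 (SE 0.29, edgeR adjusted p = 0.0924).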

How the data were processed

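The deposited files hold raw UMI counts per gene and barcode, which the authors made with Cell Ranger 7.01 against mm10 (per the labels), intronic reads included. Cells with more than 1000 genes and under 20% mitochondrial UMIs were kept, and 399 cells with the highest Scrublet scores (3.9% per library) were removed, since the automatic threshold had failed. Cells were clustered with scanpy 1.11.5 and leidenalg 0.10.2 without the 237 listed genes and named from markers. TECs were clustered again. Aire-stage mTEC-like is 1 of 16 such clusters. Cells were thinned to 2000 UMIs for shares. UMIs were summed per library and population, leaving out 109 ribosomal and haemoglobin features, and Z/Z was compared with WT by edgeR 4.0.16 (quasi-likelihood test, TMM, Benjamini-Hochberg adjustment over all genes tested), with DESeq2 1.42.0 as an alternative. Shares were compared by exact permutation tests over libraries with exact binomial (Clopper-Pearson) intervals, and a share of 0 is given with the limit of 3 counts. Each library is a pool of mice and 1 sample, and nothing states that the libraries of a group came from separate pools, so p-values measure only the spread between libraries. Named were all members called and Mki67, Top2a, Pcna, Mcm5, Hmgb2 and Stmn1, and of the other cycle genes the 3 with the smallest p in each direction in TECs. A gene that this rule names is not reported here. Other named genes were chosen after their values were seen. Members and lists were chosen with earlier results of these data known. Scripts were tested on simulated data. Promoter windows came from RefSeq (GRCm38.p6).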

Additional observations from a re-analysis of the deposited data

Results flagged for a closer look

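The Z/Z difference in proliferating share went in opposite directions between populations of the same libraries. It was -2.76 percentage points in TECs but 0.233 in fibroblasts and 0.890 in endothelial cells, and within TECs it was 6.67 in Aire-stage mTEC-like cells but -0.982 in the other TECs. In each pair every Z/Z library lay on one side of both WT libraries in one population and on the opposite side in the other. These values come from 1 draw of the thinning. Averaged over 20 draws, WT and Z/Z stayed apart in TECs and in endothelial cells, with -2.98 and 0.592 points. Single draws reached 1.89% of 106 and 4% of 25 WT endothelial cells, above the Z/Z averages of 0.688% and 0.884%. The fibroblast difference averaged -0.0276 points over the 20 draws, and the groups overlapped in fibroblasts and in the other TECs. Without thinning the difference in Aire-stage mTEC-like cells was 0.262 points, with overlapping groups. These differences between populations were not tested, and the fibroblast and endothelial values rest on 5 and 12 proliferating cells.

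Of the other cycle genes, 5 of 94 (5.32%) had a Z/Z effect that differed between TECs and fibroblasts by the edgeR interaction term. Over all genes tested 11.4% did. The difference was -2.33 on the log2 scale for Ccne2, a cyclin of S phase entry (SE 0.64, adjusted p = 0.0447), and -2.42 for Dtl, which marks proteins for destruction during replication (SE 0.64, adjusted p = 0.0390). It was -3.47 for the chromosome motor Kif4 (SE 0.93, adjusted p = 0.0405) and -2.21 for Cks2 (SE 0.36, adjusted p = 0.00480). G2e3 went the other way, with 2.16 (SE 0.29, adjusted p = 0.00192).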

How the results depend on the processing

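Of the 35 members, 5 were called in TEC sums. Subtracting empty-droplet RNA left 1 call. The count was 3 with cells of more than 500 genes, 1 with thymocyte-marker cells left out, 3 in thinned cells, 0 without the Aire-stage mTEC-like cluster, and 0 to 7 when 1 library was left out, being 0 without Z/Z 1 or Z/Z 2. Endothelial calls (1) were 0 with DESeq2, with more than 500 genes, under 10% mitochondrial UMIs and in thinned cells, 2 with no filter on low counts, and 0 to 2 with 1 library left out. Differing effects in TECs and fibroblasts (0) numbered 2 without doublet removal, 2 with no filter, 1 with thymocyte-marker cells left out and 0 to 3 with 1 library left out. Calls in the Aire-stage mTEC-like cluster (0) were 2 with DESeq2, 5 with no filter and 0 with any library left out. Fibroblast calls were 0 throughout.

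Without the Aire-stage mTEC-like cluster Top2a was 0.26 and Hmgb2 0.18. With equal weights, in 1 draw of the thinning, the TEC share differed by 2.84 points. The fibroblast share differed by -0.351 with 1 or more G2/M members, -0.195 with 3 or more S members, -0.129 at 4000 UMIs, -4.74 without thinning and -0.0276 over 20 draws. The endothelial share differed by -0.0071, -0.174 and -2.04 under the first 3 of these, and the share of the other TECs by 0.344 with 1 or more G2/M members and 0.626 at 4000 UMIs. With 1 library left out, differences ranged from -2.82 to -2.70 in TECs, 0.136 to 0.330 in fibroblasts, 0.755 to 1.02 in endothelial cells, 4.92 to 8.42 in Aire-stage mTEC-like cells and -1.18 to -0.784 in the other TECs. The cause was not tested.

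Replicate numbers did not pair the libraries (r = -0.088 over 18850 genes). With the replicate block, 2 members were called in TEC sums, Cdk1 (-1.64, edgeR adjusted p = 0.0456) and Top2a (-1.11, edgeR adjusted p = 0.0491), and 2416 genes against 4080. The block left 1 call in endothelial cells and 0 in fibroblasts and in the cluster. Over all genes in TEC sums, 2605 were called after subtraction of empty-droplet RNA, 352 without the Aire-stage mTEC-like cluster, 484 without Z/Z 1, 1524 without Z/Z 2 and 2736 in thinned cells. The 103 TECs and 25 endothelial cells of WT 2 limit every share.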
